A study of Mus musculus with 23 samples.

Results

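The genes described here are 10 genes of the circadian clock and its direct outputs: Arntl, Npas2, Nfil3, Nr1d1, Nr1d2, Dbp, Tef, Hlf, Per2 and Per3. They were taken as every probe set that the array's annotation gives a single symbol among these names, 24 of 45037 probe sets, or 10 of 18193 genes. Expression was measured in RNA of the whole right lung on 23 arrays, as log2 signals. The groups were CF females (n = 3), control females (n = 3), CF males (n = 3) and control males (n = 3) of the BALB/c strain (BALB), and CF females (n = 3), control females (n = 3), CF males (n = 2) and control males (n = 3) of the C57BL/6 strain (B6). CF mice, a model of cystic fibrosis, carried the genotype CF-/- and controls CF+/+. Targeted allele, age and hour of collection are not stated in those labels or in the files, and no treatment is named. Nothing states that each array had its own mouse, so the p-values speak of the spread between samples, part of which may be technical.

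The mammalian clock is a feedback loop of transcription that runs in nearly every tissue, the lung included. Arntl (also called Bmal1) pairs with Clock or its relative Npas2 and switches on genes that carry an E-box in their promoters, among them the Per and Cry genes, Nr1d1, Nr1d2, Dbp, Tef and Hlf. The Per and Cry proteins then block Arntl, and Nr1d1 and Nr1d2 (REV-ERB alpha and beta) repress Arntl, Npas2 and Nfil3 through the ROR element. Dbp, Tef and Hlf activate genes through the D-box, and Nfil3 represses through the same site. In mouse tissues kept in a light and dark cycle, RNA of Arntl, Npas2 and Nfil3 peaks around the end of the night and that of Nr1d1, Dbp and the Per genes in the day and evening.

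Promoter windows are shown for 3 of the genes because each carries a site of this loop in the same window whose gene is measured below. Windows run from 250 bases before to 50 bases after an annotated start in RefSeq's GRCm38.p6, are printed 5′ to 3′ on the gene's strand, and have the site in capitals.
Per3, chr4:151044616-151044915, minus strand, with D-boxes: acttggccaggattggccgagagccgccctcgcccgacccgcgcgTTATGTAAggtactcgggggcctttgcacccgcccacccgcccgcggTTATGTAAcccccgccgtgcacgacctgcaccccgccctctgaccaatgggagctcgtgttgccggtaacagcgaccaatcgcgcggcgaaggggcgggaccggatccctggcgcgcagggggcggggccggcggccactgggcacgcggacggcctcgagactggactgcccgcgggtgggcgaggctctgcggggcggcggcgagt
Arntl, chr7:113207261-113207560, plus strand, with a ROR element: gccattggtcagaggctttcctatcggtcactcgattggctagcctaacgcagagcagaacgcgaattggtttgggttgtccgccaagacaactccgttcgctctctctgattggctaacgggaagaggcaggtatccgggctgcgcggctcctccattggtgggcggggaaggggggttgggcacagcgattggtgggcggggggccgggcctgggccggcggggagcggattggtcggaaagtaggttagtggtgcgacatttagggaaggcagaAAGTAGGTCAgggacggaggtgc
Tef, chr15:81811164-81811463, plus strand, with an E-box: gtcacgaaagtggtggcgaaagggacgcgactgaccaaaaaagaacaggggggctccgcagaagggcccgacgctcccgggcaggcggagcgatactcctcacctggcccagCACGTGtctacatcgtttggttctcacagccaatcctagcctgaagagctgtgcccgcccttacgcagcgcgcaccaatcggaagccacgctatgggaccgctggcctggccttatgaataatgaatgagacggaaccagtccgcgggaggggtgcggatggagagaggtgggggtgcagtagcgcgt
Per3 holds the D-box TTATGTAA at positions 46 and 93 of its window. Arntl holds the ROR element AAGTAGGTCA at position 278, inside the transcript, and Tef the E-box CACGTG at position 113, with another in its second window. Among the 11 windows of the 9 members found in the table, 2 held an E-box (both of Tef), 1 a D-box and 1 a ROR element. Searched on both strands, the E-box CACGTG was in 7.15% of all 32851 windows, the D-box TTANGTAA in 2.32% and the ROR element, written AAN followed by TAGGTCA, in 0.219%. A match describes the letters only, and these short windows leave out distant sites.

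The genotype label could be checked in BALB. Cftr, the gene mutated in cystic fibrosis, read 3.49 to 4.42 on BALB CF arrays and 5.40 to 5.85 on BALB control arrays, but 3.86 to 4.31 on B6 CF and 4.04 to 4.58 on B6 control arrays, where the ranges overlapped. The sex labels held on all 23 arrays by Xist and Eif2s3y. The surfactant gene Sftpc, which defines the labelled lung tissue, read 13.55 to 13.75 on every array. Some arrays also carried genes of skeletal muscle and of squamous epithelium: the muscle actin Acta1 read 9.28, 9.97 and 11.65 on the 3 BALB CF female arrays, 8.35 on B6 control female 1 and 11.40 on B6 control male 3, against 4.70 to 6.17 elsewhere. On the same 5 arrays the squamous keratin Krt4 read 8.55 to 12.60, against 3.83 to 5.38. Results that rest on 1 of these arrays are given without it, and BALB males alone give the BALB comparison without the BALB CF females.

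B6 control males stood apart from the other 7 groups in this loop, with the highest Arntl, Npas2 and Nfil3 means and the lowest Dbp, Tef, Hlf, Nr1d2, Per2 and Per3 means. Nr1d1 was the exception, with 7.21 ± 0.11 there (SD, n = 3), above BALB CF males (6.19 ± 0.15) and BALB control males (6.81 ± 0.33). Dbp averaged 6.41 ± 0.09 there (SD, n = 3), and every other group averaged 7.81 or more. The lowest Per2 mean rests on B6 control female 1 (7.29). Without it, the remaining B6 control females (5.20 and 5.17) lay below all 3 control males (5.68 to 5.85). In Npas2 the arrays overlapped, as B6 control female 2 (4.77) read above control males 2 and 3 (4.48 and 4.58). The values of each gene by array follow, in the order of the roles in the loop.

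Arntl, the core activator, read 5.58 and 4.92 in B6 CF males, against 6.37, 6.39 and 6.27 in B6 control males. It read 4.40, 4.40 and 4.67 in B6 CF females, against 3.96, 5.50 and 5.06 in B6 control females. Every B6 control male lay above every other array, and control female 1 lay below its 2 group mates and below all B6 CF females. In BALB, Arntl read 4.72, 3.99 and 4.31 in CF females and 3.91, 4.17 and 4.13 in control females. BALB males read 4.38, 4.82 and 4.55 with CF and 4.33, 3.69 and 4.55 as controls. The BALB groups overlapped in both sexes, and no BALB array reached the lowest B6 male array.

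Npas2, the Clock relative that pairs with Arntl, read 4.33 and 4.18 in B6 CF males, against 5.02, 4.48 and 4.58 in B6 control males. B6 CF females read 3.99, 4.05 and 3.997, against 4.04, 4.77 and 4.23 in B6 control females. This probe set lay below the median of all probe sets (4.59) on average, so its differences are those of a dim signal. In BALB it spanned 3.92 to 4.41 on CF arrays and 3.76 to 4.12 on control arrays. Nfil3, the repressor at D-boxes, read 5.23 and 5.17 in B6 CF males, against 5.63, 5.86 and 5.44 in B6 control males. Nfil3 was higher on every B6 male array than on any B6 female array, whatever the genotype: 4.01 to 4.30 in B6 CF females and 4.16 to 4.46 in B6 control females. In BALB it spanned 3.75 to 4.75 on CF arrays and 3.81 to 5.05 on control arrays, and it too was dim on average.

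Nr1d1, the repressor of Arntl, read 7.68 and 7.79 in B6 CF males, against 7.29, 7.24 and 7.09 in B6 control males. It read 7.41, 7.99 and 7.51 in B6 CF females, against 7.996, 8.11 and 8.21 in B6 control females, so that CF females lay below their controls and CF males above theirs. In females the ranges all but touched, at 7.99 in CF female 2 and 7.996 in control female 1. In BALB it read 6.38, 7.80 and 7.48 in CF females, against 7.39, 7.40 and 7.68 in control females, and 6.28, 6.02 and 6.27 in CF males, against 6.43, 7.03 and 6.96 in control males. The 3 BALB CF males lay below every control of the strain. Nr1d2, its paralog, spanned 8.69 to 9.42 on B6 CF arrays and 8.31 to 9.73 on B6 control arrays. It was lowest in B6 control males (8.31, 8.50 and 8.44).

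Dbp, the D-box activator with the widest swing of the 10, read 8.22 and 8.67 in B6 CF males, against 6.38, 6.51 and 6.34 in B6 control males. In B6 females it read 8.65, 9.51 and 8.996 with CF, against 9.96, 8.97 and 9.03 in controls. The male groups did not overlap and the female groups did. BALB CF females read 7.97, 9.82 and 9.20, against 9.55, 9.33 and 9.41 in control females. BALB CF males read 8.12, 7.44 and 7.85, against 7.69, 9.26 and 8.85 in control males. Both BALB pairs overlapped, and the spread inside BALB groups reached 0.94 (SD, CF females).

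Tef and Hlf, the other D-box activators, were lowest in the same B6 control males. Tef read 9.14 and 9.48 in B6 CF males, against 8.76, 8.70 and 8.76 in control males, and 9.71, 9.75 and 9.73 in B6 CF females, against 10.001, 9.02 and 9.07 in control females. Hlf read 6.31 and 6.84 in B6 CF males, against 5.31, 5.10 and 5.26 in control males, and 7.08, 7.34 and 6.76 in CF females, against 7.29, 6.44 and 6.32 in control females. In both genes the B6 males did not overlap, while control female 1 sat with or above the CF females and control females 2 and 3 below them. In BALB, Tef spanned 9.32 to 9.77 on CF arrays and 9.36 to 9.89 on control arrays. Hlf spanned 6.35 to 7.02 on BALB CF arrays and 6.68 to 7.51 on BALB control arrays.

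Per2 and Per3, the repressors of the loop that accumulate towards evening, were both high on 1 B6 control female array. Per2 read 6.85, 6.74 and 6.85 in B6 CF females, against 7.29, 5.20 and 5.17 in B6 control females, so that control female 1 was about 2 log2 units above its group mates. Per2 read 5.91 and 6.60 in B6 CF males, against 5.85, 5.83 and 5.68 in control males. Per3 read 6.31 and 6.72 in B6 CF males, against 5.41, 5.59 and 5.72 in control males, and 6.75, 6.77 and 6.87 in B6 CF females, against 7.20, 6.23 and 6.30 in control females. Control female 1 again read higher than its group mates. In BALB, Per2 spanned 6.14 to 7.13 on CF arrays and 6.69 to 7.74 on controls, and Per3 6.55 to 7.21 on CF arrays and 6.77 to 7.18 on controls.

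**Figure D1:**
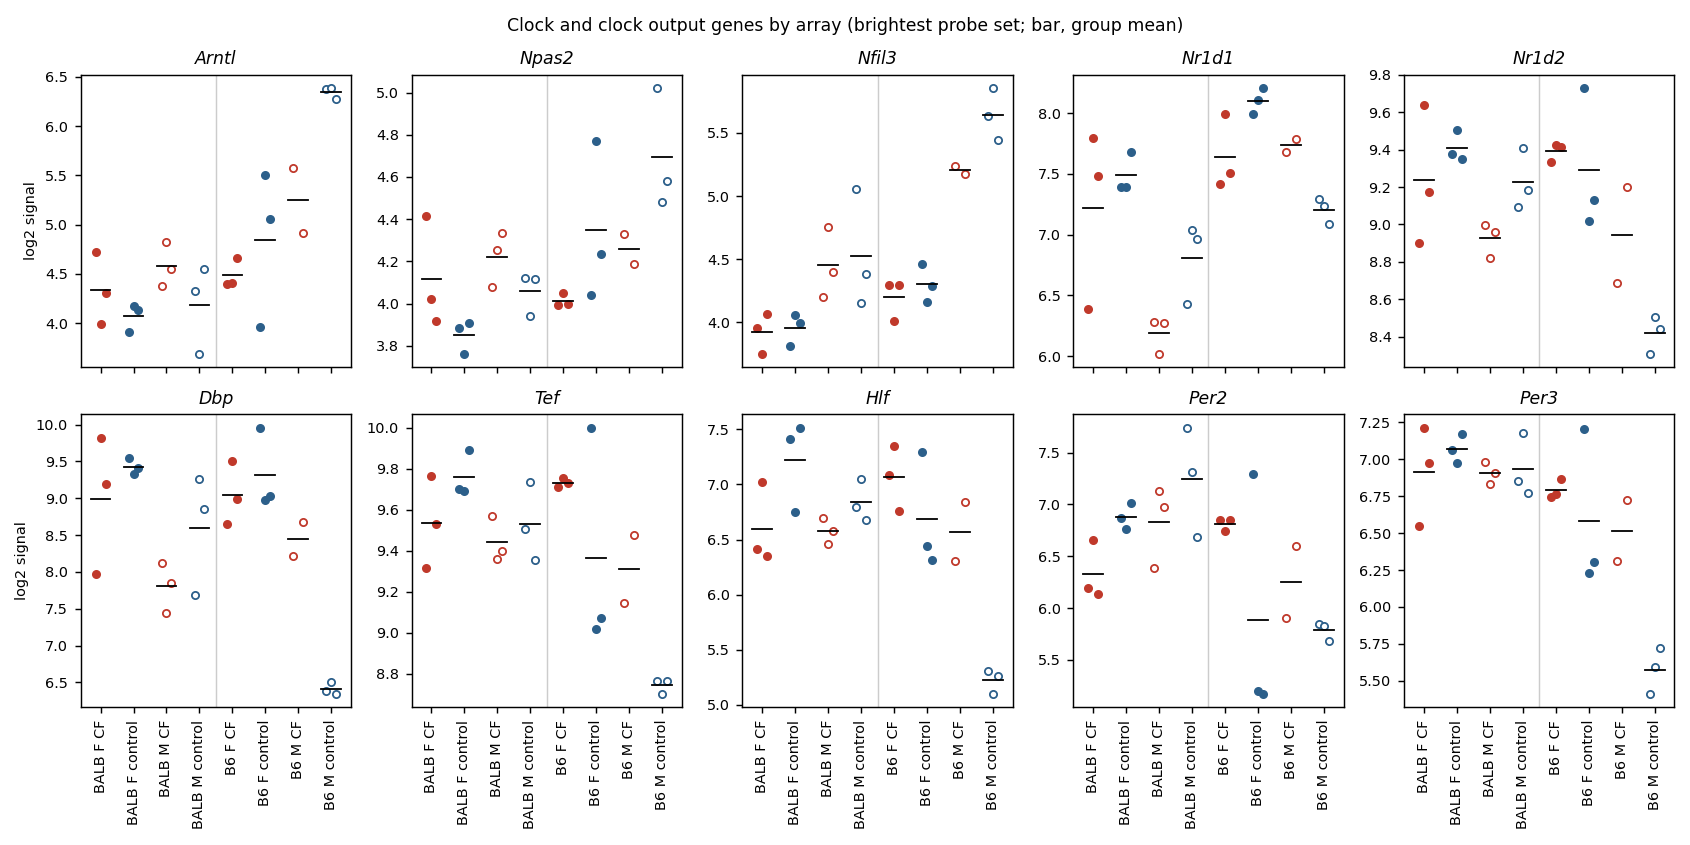
Log2 signal of the 10 clock genes on each of the 23 arrays, by the brightest probe set of the gene, with 1 point per array and a bar at the group mean. B6 control males have the highest Arntl (6.27 to 6.39) and the lowest Dbp (6.34 to 6.51), and in B6 control females 1 array lies far from the other 2 for Per2.

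In CF lungs of B6, taken over both sexes, 3 D-box and Per genes were higher than in controls: Hlf by 0.86 (log2, SE 0.18, limma adjusted p = 0.00569), Per3 by 0.58 (SE 0.15, adjusted p = 0.0249) and Tef by 0.47 (SE 0.13, adjusted p = 0.047). These were 3 of 10 clock genes, all higher, against 5.43% of all genes past an adjusted p of 0.05 in either direction and 3.92% higher. None of the 10 was lower, where 1.5% of all genes were. Their median difference was 0.39, against 0.01 over all genes. The remaining 7 missed the threshold, among them Arntl (-0.72, SE 0.21, limma adjusted p = 0.0513), Npas2 (-0.38, SE 0.12, adjusted p = 0.0647) and Dbp (0.88, SE 0.29, adjusted p = 0.0847). Nr1d1 differed by 0.03 (SE 0.18), the mean of opposite differences in the sexes.

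These B6 counts depended on single arrays. Without B6 control female 1, the array high in Per2 and in muscle genes, 8 of 10 genes passed (5.61% of all genes), Arntl at -0.94 (limma adjusted p = 0.00175) and Dbp at 1.04 (adjusted p = 0.0384) among them. Without BALB CF female 1, which enters only through the shared spread, 6 passed (5.82% of all genes). Without B6 control female 2 or 3, control male 1, CF female 3 or CF male 2, only Hlf passed of the 10, and 3.61% to 5.44% of all genes did. Hlf kept its call in each of the 23 removals of 1 array, Per3 lost it in 5 and Tef in 18. Tef also missed the threshold with trended, robust variance (limma adjusted p = 0.0707) and with only the groups compared (adjusted p = 0.0954), and Per3 with the mean of its probe sets (0.24, adjusted p = 0.362). With array weights, Arntl (-0.84, limma adjusted p = 0.0066), Npas2, Dbp, Nr1d2 and Per2 passed as well. Arntl also passed after quantile normalization (limma adjusted p = 0.0455) and with only probe sets at or above the median (adjusted p = 0.0393). Npas2 passed with the mean of its probe sets (limma adjusted p = 0.0072), and Dbp with only the groups compared (adjusted p = 0.0161).

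By sex, 4 of the 10 genes passed in B6 males, 3 higher and 1 lower, where 7.4% of all genes were called (5.13% higher and 2.26% lower). Dbp was 2.04 higher in CF than in control males (SE 0.43, limma adjusted p = 0.00599), which is 4.10-fold. Hlf was 1.35 higher (SE 0.26, adjusted p = 0.00339) and Per3 0.94 higher (SE 0.22, adjusted p = 0.0114), while Arntl was lower, at -1.10 (SE 0.31, adjusted p = 0.0398). Arntl missed the threshold with trended, robust variance (limma adjusted p = 0.0725), with the replicate block (-1.05, adjusted p = 0.0644) and in 6 of 23 removals of 1 array, and Per3 with the mean of its probe sets (adjusted p = 0.126). In B6 females none of the 10 passed (0.929% of all genes did), and at an unadjusted p under 0.05 there were 2 (Npas2 and Per2), where 10% of all genes passed. The test of the female minus the male effect called 1 of 10, Dbp (-2.31, SE 0.57, adjusted p = 0.0423), against 2.05% of all genes, and that call was lost in 12 of 23 removals of 1 array and with trended, robust variance (limma adjusted p = 0.0944). Only 2 CF male arrays stand behind the male values: without CF male 2, none of the 10 passed (6.48% of all genes did), with Dbp still 1.81 higher (adjusted p = 0.0624).

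T cell markers were higher in the same comparison, all 5 of 5 measured (Cd3e, Cd3g, Cd3d, Cd8b1 and Il7r), with a mean level of 6.45 to 6.65 in B6 CF males, against 4.79 to 5.17 in B6 control males. Neutrophil markers were higher in 2 of 4, at a mean level of 8.87 to 8.97 in CF males and 8.07 to 8.40 in control males. B cell markers were higher in 3 of 4 (Cd79a, Cd79b and Pou2af1), at a mean level of 6.06 to 6.75 in CF males and 4.59 to 5.11 in control males. Of 7 heat and cold response genes, 3 were lower (Hspa8, Hsph1 and Hsp90aa1) and 1 (Cirbp) higher, with a mean level over the list of 8.78 to 9.15 in CF males and 9.56 to 9.83 in control males. The lung epithelium list held 0 of 6 called. The part of cell makeup and of the heat response in the clock values was not tested, and in whole lung fewer cells of a type and less RNA per cell cannot be told apart.

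CF lungs of BALB showed no call among the 10 genes, where 5.53% of all genes passed. The differences were -0.61 for Dbp (SE 0.27, limma adjusted p = 0.222), -0.45 for Hlf (SE 0.17, adjusted p = 0.135), -0.44 for Nr1d1 (SE 0.17, adjusted p = 0.143) and 0.33 for Arntl (adjusted p = 0.413). Their median was -0.20, against -0.01 over all genes. By limma at an unadjusted p under 0.05, 3 of the 10 passed (Dbp, Hlf and Nr1d1), and 19.3% of all genes did. A dimmer probe set of Per2 was lower in CF lungs, at -0.82 (SE 0.19, adjusted p = 0.0128), against -0.49 (adjusted p = 0.354) by the brightest. Within BALB females (1.51% of all genes called) and within BALB males (2.12%) none of the 10 passed either, and at an unadjusted p under 0.05 the counts were 1 (17.2% of all genes) and 2 (13.7%). The sex difference of the effect in BALB called 0 of 10 by limma (0.0275% of all genes), and 0 at an unadjusted p under 0.05 (10.3%). Markers of 3 blood cell types were higher in the same BALB comparison, 4 of 4 measured for neutrophils, 4 of 4 for B cells and 3 of 5 for T cells. The squamous genes Krt4 and Krt13 were higher too, and 3 of 5 gut markers and Foxj1 were lower. The mean level of the neutrophil markers was 8.12 to 8.90 in CF females, against 6.76 to 6.90 in control females, and 8.13 to 8.25 in CF males, against 6.93 to 7.82 in control males. Their part in the clock values was not tested.

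The CF effect in BALB differed from that in B6 in Hlf, by -1.31 (SE 0.24, limma adjusted p = 0.00555), and in Dbp, by -1.50 (SE 0.39, adjusted p = 0.0456). These were 2 of 10, against 2.23% of all genes. Arntl (1.05, SE 0.29, adjusted p = 0.055) and Npas2 (0.60, SE 0.16, adjusted p = 0.0509) lay just outside the threshold. Without B6 control female 1 the count was 8 of 10, where 3.07% of all genes passed, and without BALB CF female 2 it was 4, where 1.79% did. The call of Dbp was lost in 16 of 23 removals of 1 array, B6 and BALB arrays alike, and that of Hlf in 0. Dbp also missed the threshold with trended, robust variance (limma adjusted p = 0.102) and with the mean of its probe sets (adjusted p = 0.0587). Arntl passed with only probe sets at or above the median (limma adjusted p = 0.0437) and with array weights (adjusted p = 0.0077). Npas2 passed with the mean of its probe sets (limma adjusted p = 0.0191), with trended, robust variance (adjusted p = 0.0397) and with array weights (adjusted p = 0.0358).

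Among controls, the strains differed in all 10 genes, where 18.2% of all genes passed (8.64% higher and 9.58% lower in BALB). BALB controls were lower than B6 controls in Arntl (-1.46, SE 0.20, limma adjusted p = 1.1e-05), Npas2 (-0.56), Nfil3 (-0.73) and Nr1d1 (-0.51, adjusted p = 0.044). They were higher in Dbp (1.15, SE 0.27, adjusted p = 0.0044), Hlf (1.08, adjusted p = 5.41e-05), Per2 (1.23), Per3 (0.92), Tef (0.59) and Nr1d2 (0.46). The same controls were then compared within each sex, a comparison chosen after the values had been seen. In males 9 of the 10 passed, all but Nr1d1 (11.2% of all genes), with Dbp 2.19 higher in BALB (4.56-fold, adjusted p = 0.000451) and Arntl at -2.16. In females none of the 10 passed (9.75% of all genes), while 7 did at an unadjusted p under 0.05, as did 21.7% of all genes. Without B6 control female 1, 6 of the 10 passed in females (9.51% of all genes). Whether the strain difference of controls differed between the sexes was not tested. Nr1d1 in all controls lost its call in 13 of 23 removals of 1 array, and the other 9 genes in 0. Of 5 gut markers 4 were also higher in BALB controls (Fabp2, Vil1, Cdx1 and Lgals4), while the neutrophil genes S100a8 and S100a9 and the ciliated cell gene Foxj1 were lower (2 of 4 and 1 of 6 of their lists). Their part in the clock values was not tested.

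Between sexes, control females differed from control males in 7 of the 10 genes, 5 higher and 2 lower, where 3.42% of all genes passed (2.51% higher and 0.912% lower in females). Dbp was higher in females by 1.87 (SE 0.27, limma adjusted p = 0.000555), Hlf by 0.92 (adjusted p = 0.00435), Nr1d1 by 0.79 (adjusted p = 0.0138), Per3 by 0.57 and Nr1d2 by 0.53. Nfil3 (-0.96, adjusted p = 0.000195) and Arntl (-0.81, adjusted p = 0.0316) were lower. Arntl lost its call in 7 of 23 removals of 1 array, with trended, robust variance (limma adjusted p = 0.0607) and with only the groups compared (adjusted p = 0.072). Per3 lost its with only the groups compared (limma adjusted p = 0.0631) and with the mean of its probe sets (adjusted p = 0.074), and Nr1d2 with the mean of its probe sets (adjusted p = 0.0536). Per2 differed by -0.13 (adjusted p = 0.862). Split by strain, again after the values had been seen, 7 passed in B6 (4.11% of all genes), with Dbp 2.91 higher in females (7.51-fold, adjusted p = 0.000259) and Arntl at -1.50. In BALB none of the 10 passed, where 0.143% of all genes did, and 3 had an unadjusted p under 0.05, as did 7.19% of all genes. Whether the sex difference of controls differed between the strains was not tested. Over both strains the count was 4 without B6 control male 1, where 1.93% of all genes passed, and 3 without BALB control male 1, where 1.43% did, while Dbp, Hlf and Nfil3 kept their calls in all 23 removals of 1 array. All 4 B cell markers measured were also higher in control females than in control males, the neutrophil genes S100a8 (-1.05, limma adjusted p = 0.0262) and S100a9 were lower, and so were 6 of 7 heat and cold response genes (Hspa1a, Hspa1b, Hspa8, Hsph1, Dnajb1 and Hsp90aa1), with Cirbp higher. The heat and cold list had a mean level of 7.69 to 9.19 in B6 control females and 8.31 to 9.09 in BALB control females, against 9.56 to 9.83 in B6 control males and 10.06 to 10.52 in BALB control males. Their part in the clock values was not tested.

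Among CF mice, 2 of the 10 genes differed between strains and 1 between sexes. BALB CF lungs were lower than B6 CF lungs in Nr1d1 (-0.98, SE 0.18, limma adjusted p = 0.000341) and Nfil3 (-0.51, adjusted p = 0.00778), where 19.7% of all genes passed. CF females were lower than CF males in Nfil3 (-0.76, SE 0.13, adjusted p = 0.00781), where 0.198% of all genes passed; without B6 CF male 2 this was lost (adjusted p = 0.0624). Dbp and Arntl passed in neither. In the strain comparison of CF mice 4 of 5 skeletal muscle genes (Acta1, Ckm, Mylpf and Tnnt3) and 2 of 5 squamous genes (Krt4 and Krt13) were also higher in BALB, where the muscle list had a mean level of 6.89 to 9.13 in CF females and 4.79 to 4.85 in CF males. In males, whose muscle level in B6 was 4.48 to 4.54, Nr1d1 read 6.02 to 6.28 in BALB CF lungs and 7.68 to 7.79 in B6 CF lungs, and Nfil3 4.20 to 4.75 in BALB and 5.17 to 5.23 in B6, without overlap. Of 10 glucocorticoid response genes 8 were lower in BALB CF lungs (Fkbp5, Zbtb16, Klf9, Errfi1, Mt1, Mt2, Dusp1 and Lcn2), as were 2 of 5 T cell genes (Cd8b1 and Il7r). The part of these in the clock values was not tested. B6 control males enter the strain, the sex and the B6 genotype comparison at once, so the calls of these 3 comparisons share the same 3 arrays.

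**Figure D2:**
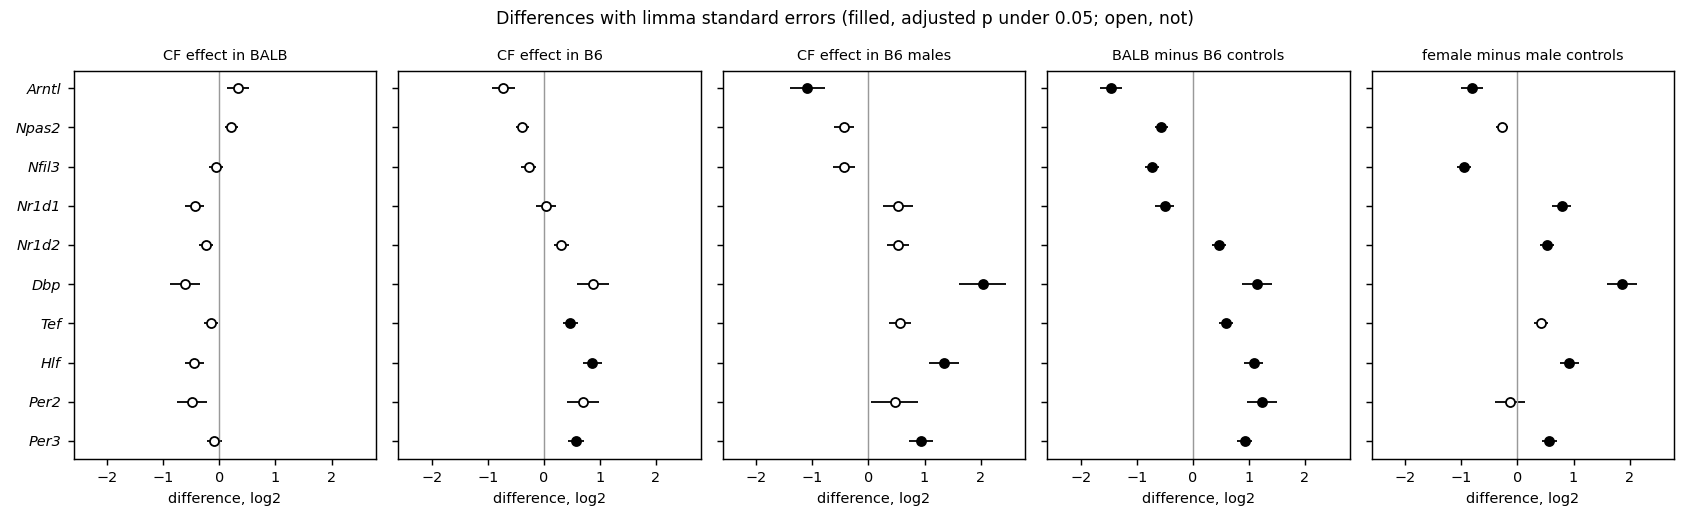
Difference of the log2 signal of each clock gene in 5 comparisons, with the standard error from limma as a horizontal line. Filled points passed an adjusted p of 0.05: 0 for CF in BALB, 3 for CF in B6, 4 for CF in B6 males, 10 for BALB minus B6 controls and 7 for female minus male controls.

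The 24 probe sets of the 10 genes did not give the same calls throughout. Per3 has 6 probe sets, and for CF in B6 their differences ran from -0.01 to 0.58, with only the brightest called. The dimmer Npas2 probe set was called in B6 (-0.70, SE 0.14, limma adjusted p = 0.00558) where the brighter was not. For BALB minus B6 controls the dimmer Arntl probe set differed by -0.23 and was not called, against -1.46 by the brighter. Within control females the 2 differed by 0.03 and -0.77, and within control males both were called. The brighter Arntl probe set averaged 4.74, little above the median of all probe sets (4.59). Over all 24, CF in B6 gave 5 calls (4 higher, 1 lower), where 4.71% of all probe sets passed, and CF in BALB 1, where 4.92% did. BALB minus B6 controls gave 19 calls, against 15.6% of all probe sets, and female minus male controls 12, against 2.43%.

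A clock index was formed on each array, to describe it by 1 value: the mean of the 7 genes that peak in the day and evening (Dbp, Tef, Hlf, Nr1d1, Nr1d2, Per2 and Per3) minus the mean of the 3 that peak around the end of the night, each gene relative to its median over all arrays. B6 CF males had an index of -1.14 and -0.42, against -2.48, -2.35 and -2.23 in B6 control males. B6 CF females had 0.18, 0.51 and 0.14, against 0.78, -0.80 and -0.48 in B6 control females. The 3 control males are thus the lowest of all arrays by more than 1 log2 unit, and the control females are split. In BALB the index was -0.53, 0.79 and 0.18 in CF females, against 0.77, 0.50 and 0.72 in control females. BALB CF males had -0.20, -0.73 and -0.42, against -0.33, 0.66 and -0.12 in control males. Arrays of 1 group thus differed by up to 1.58 in B6 control females and by up to 1.33 in BALB CF females.

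**Figure D3:**
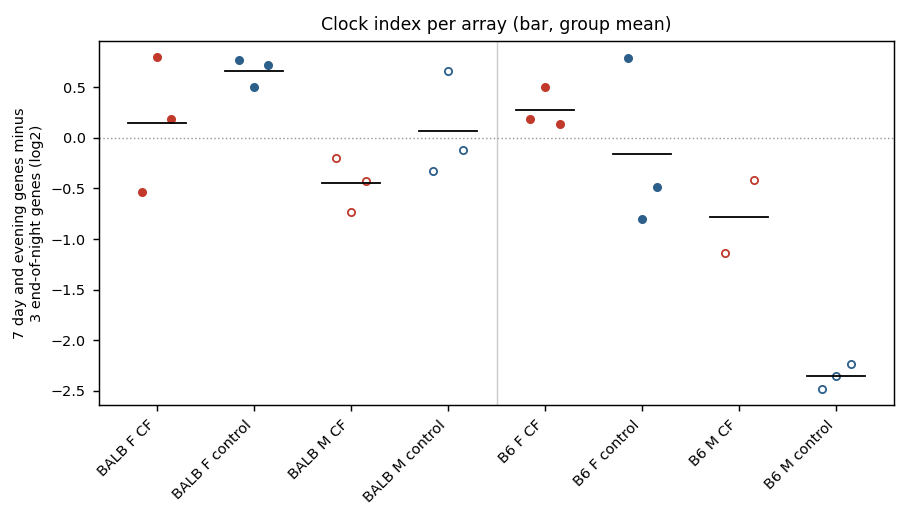
Clock index of each array in log2 units, with 1 point per array and a bar at the group mean; a low index means high end-of-night genes and low day and evening genes. B6 control males lie between -2.48 and -2.23, below all other arrays, and B6 control females spread from -0.80 to 0.78.

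In the known daily cycle of mouse tissues, high Arntl, Npas2 and Nfil3 with low Dbp, Hlf and Per3 mark the end of the night. By group means, B6 control males had that pattern relative to the other 7 groups. Nr1d1 did not follow it: it read 7.09 to 7.29 in those males, above BALB CF males (6.02 to 6.28) and BALB control males (6.43 to 7.03). Their Per2 (5.68 to 5.85) lay above that of B6 control females 2 and 3 (5.20 and 5.17). In part, B6 control females 2 and 3 had the pattern relative to control female 1 (Arntl 5.50 and 5.06 against 3.96, Per3 6.23 and 6.30 against 7.20). Nfil3 (4.16 and 4.29 against 4.46) and Nr1d1 (8.11 and 8.21 against 7.996) went the other way in those females. No hour of collection is stated. Whether the groups were collected at different hours was not tested, and hour, genotype, sex and strain cannot be told apart for a group collected at 1 time.

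Inside groups, the clock genes moved with and against each other from array to array. After the 8 group means had been removed, Arntl ran against Tef (Pearson r = -0.92, Spearman rho = -0.84, 23 arrays, permutation adjusted p = 0.0052 over 17 relations) and Per3 (r = -0.91, rho = -0.81, adjusted p = 0.0052). Arntl also ran against Nr1d2 (r = -0.86) and Hlf (r = -0.78), and each of these 4 relations kept its threshold without the 2 arrays farthest from the median of Arntl. Dbp ran with Nr1d2 (r = 0.80, rho = 0.76, permutation adjusted p = 0.0034), Per3 (r = 0.72), Tef (r = 0.65) and Hlf (r = 0.59), which also held without 2 arrays. Dbp with Nr1d1 gave r = 0.81 (rho = 0.72, permutation adjusted p = 0.0154), and 0.66 without 2 arrays (adjusted p = 0.0967). Arntl against Dbp gave r = -0.70 (rho = -0.71, permutation adjusted p = 0.0154) and -0.69 without B6 control females 1 and 2 (adjusted p = 0.057). Arntl with Npas2 gave r = 0.67 (rho = 0.60, permutation adjusted p = 0.0278), and 0.44 without 2 arrays. Dbp against Npas2 gave r = -0.53 (rho = -0.49, permutation adjusted p = 0.0483), and -0.45 without 2 arrays. These 4 relations missed the threshold without the 2 arrays, though r changed little in Arntl against Dbp and Dbp against Npas2. Arntl against Per2, Nr1d1 and Nfil3, and Dbp against Per2 and Nfil3, did not pass.

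**Figure D4:**
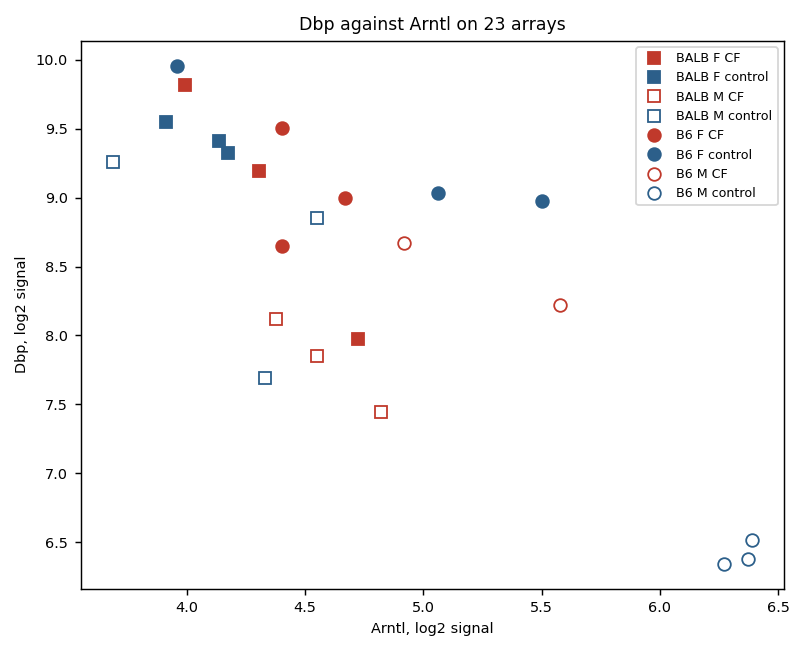
Log2 signal of Dbp (vertical axis) against that of Arntl (horizontal axis), 1 point per array, with strain as shape, genotype as colour and sex as fill. The 3 B6 control males lie apart at high Arntl and low Dbp. B6 control female 1 (Arntl 3.96, Dbp 9.96) lies towards the opposite end, among BALB arrays such as BALB CF female 2 (3.99 and 9.82).

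Of 11626 genes compared, none of them among the 10, those whose array to array pattern within groups was most like that of Arntl were Dtx4 (r = 0.92), 4930445K14Rik (0.86), Tnfrsf1a (0.85), Creb3l1 (0.84) and Trim26 (0.84), over 23 arrays. For Dbp, again outside the 10 (Nr1d1 gave 0.81 and Nr1d2 0.80), they were Xrcc6 (0.82), Fam107b (0.81), Cxcr4 (0.80), Pcsk7 (0.80) and Polr2b (0.80). With group means left in, r with Arntl was 0.88 for Dtx4, 0.67 for 4930445K14Rik, 0.26 for Tnfrsf1a, 0.86 for Creb3l1 and -0.47 for Trim26. For Dbp and its 5 genes it then ran from 0.35 (Fam107b) to 0.70 (Polr2b). All these values are a description of the same arrays.

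Of 18 further clock genes 16 were measured, and few were called. Clock, the partner of Arntl, was lower in B6 CF lungs (-0.40, SE 0.10, limma adjusted p = 0.0314), the only 1 of 16, where 5.43% of all genes passed. Clock lost this call in 8 of 23 removals of 1 array. It read 6.30 and 6.48 in B6 CF males, against 7.04, 7.08 and 7.12 in B6 control males, which were the highest arrays of all. In B6 males alone it was lower, at -0.69 (adjusted p = 0.00974), and in BALB it differed by -0.01. Cry1, a repressor that joins the Per proteins, was higher in BALB than in B6 controls (0.95, SE 0.19, adjusted p = 0.00104), where Clock was lower (-0.42, adjusted p = 0.00398). Of the 16, 1 was thus higher and 1 lower in BALB controls, where 18.2% of all genes passed. None of the 16 passed between female and male controls, where 3.42% of all genes did. Btrc, a part of the ubiquitin ligase that marks Per proteins for breakdown, was higher in B6 CF than in B6 control males (0.36, SE 0.09, limma adjusted p = 0.0193), and its CF effect was lower in B6 females than in B6 males (-0.50, adjusted p = 0.0353). In B6 males 1 of 16 was thus higher and 1 (Clock) lower, where 7.4% of all genes passed. For the sex difference of the effect in B6 it was 1 of 16, where 2.05% of all genes passed. Among CF mice, BALB was lower than B6 in Per1 (-1.50, limma adjusted p = 7.24e-05) and in the Per kinase Csnk1e (-0.37, adjusted p = 0.000318), and higher in Timeless (0.32) and Fbxl21 (0.27), the last a dim probe set. That made 4 of 16, where 19.7% of all genes passed.

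Per1, a repressor of the loop like Per2 and Per3, was the only 1 of the 16 called for CF in BALB, where 5.53% of all genes passed. Per1 read 6.60, 6.81 and 6.45 in BALB CF females, against 7.86, 7.17 and 8.12 in control females. BALB CF males read 5.61, 6.65 and 6.28, against 7.94, 7.75 and 7.67 in control males. The groups did not overlap in either sex, and the difference was -1.35 (SE 0.22, limma adjusted p = 0.00111). In B6 it was 0.69 (SE 0.24, adjusted p = 0.105), and the strains' CF effects differed by -2.04 (SE 0.33, adjusted p = 0.00182). Both calls held in all 23 removals of 1 array.

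Per1 also responds to glucocorticoid hormones and other acute signals. Of 10 glucocorticoid response genes, 3 were lower in BALB CF lungs (Errfi1, Mt1 and Dusp1, the last by -0.98, limma adjusted p = 0.00212), with a median of -0.40, and 3 were higher in B6 CF lungs (Sgk1, Dusp1 and Lcn2), with a median of 0.54. Of 7 heat and cold response genes measured, 6 were lower in BALB CF lungs. Among all genes, 5.53% passed for CF in BALB and 5.43% for CF in B6. The part of these responses in the Per1 values was not tested.

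Of 6 output genes outside the loop 5 were measured. Wee1, a mitotic kinase gene with E-boxes, was higher in B6 CF lungs by 0.75 (SE 0.14, limma adjusted p = 0.00261), and Usp2, a clock-driven deubiquitinase, by 0.43 (SE 0.12, adjusted p = 0.0424). These were 2 of 5, where 5.43% of all genes passed. Wee1 kept its call in all 23 removals of 1 array, and Usp2 lost its in 11. Wee1 read 6.37 and 6.47 in B6 CF males, against 5.49, 5.66 and 5.73 in control males. Usp2 was lower in BALB CF lungs (-0.41, SE 0.11, adjusted p = 0.0403; lost in 10 removals), and its CF effect differed between strains by -0.84 (adjusted p = 0.00876). For CF in BALB this was 1 of 5, where 5.53% of all genes passed. The strain difference of the effect called 2 of 5, Usp2 and Wee1, where 2.23% of all genes passed. Usp2 and Wee1 were also called higher in BALB than in B6 controls, 2 of 5, where 18.2% of all genes passed. Cdkn1a, a cell cycle inhibitor, was lower in control females than in control males (-1.10, adjusted p = 0.00718), 1 of 5, where 3.42% of all genes passed. Among CF mice, Cdkn1a (-1.02, limma adjusted p = 0.00231) and Alas1 (-0.40, adjusted p = 0.021), the first enzyme of heme synthesis, were lower in BALB than in B6. That made 2 of 5, where 19.7% of all genes passed.

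**Figure D5:**
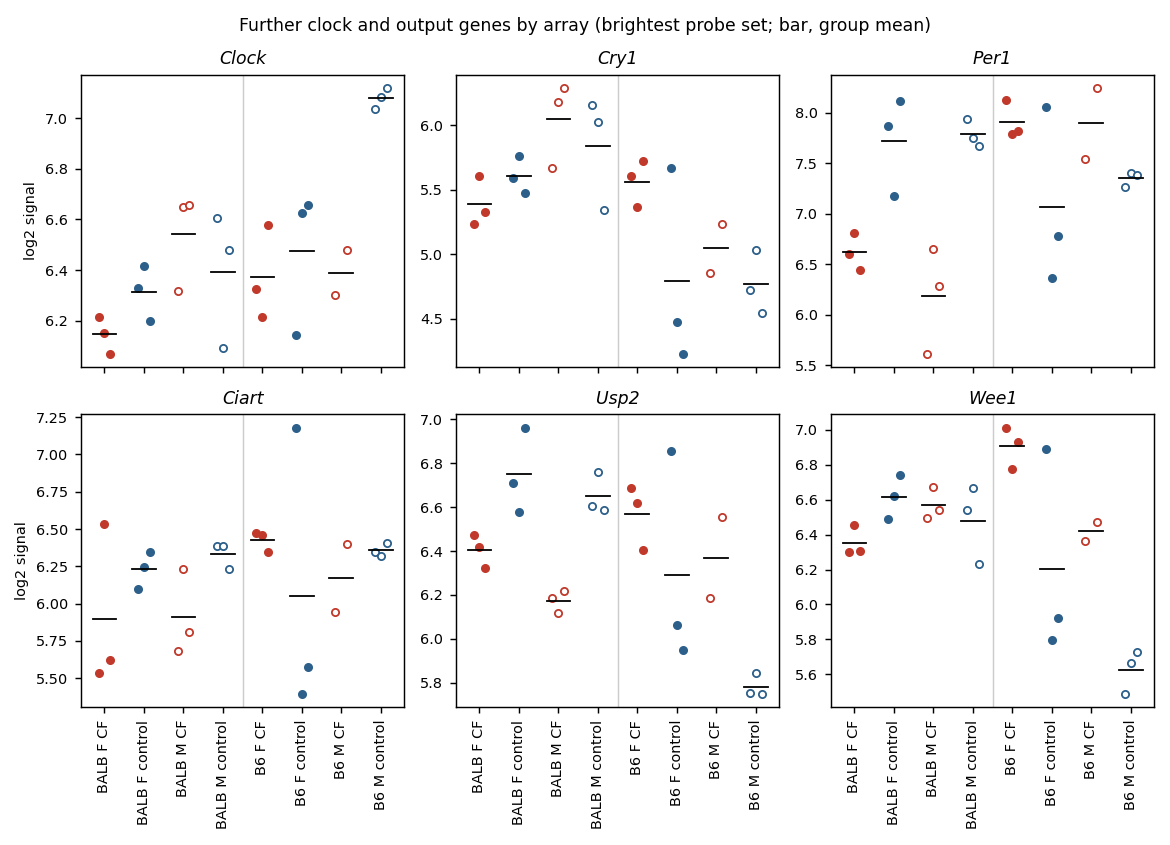
Log2 signal of 4 further clock genes (Clock, Cry1, Per1 and Ciart) and the outputs Usp2 and Wee1 on each array, with a bar at the group mean. Clock is highest (7.04 to 7.12) and Wee1 lowest (5.49 to 5.73) in B6 control males, and Per1 is lower in CF than in control arrays of BALB without overlap.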

How the data were processed

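Arrays were 23, 1 per sample, and the values those of the deposited table, 45101 probe sets whose names are those of an Affymetrix mouse array. They were taken as log2 signals, which was inferred from the deposited values; how probes were summarised and normalized is not given in the sources used here. Array medians lay between 4.56 and 4.64, any pair of arrays correlated at 0.971 to 0.996, and 0 pairs were identical. After 64 control probe sets were left out, 45037 were tested; 34945 had 1 symbol in the platform annotation, 932 several and 9160 none. Groups and replicate numbers came from the sample titles.

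All 8 group means entered 1 model in limma 3.58.1 (lmFit, eBayes; R 4.3.3). It had 15 residual degrees of freedom and 5.81 prior ones. P-values were adjusted by Benjamini-Hochberg over all probe sets within each comparison, at a threshold of 0.05. With 3 arrays against 3, an exact two-sided permutation test cannot go below 0.1, hence the shared fit. A CF effect over both sexes is the mean of the effects in females and males. A gene is read by its probe set with the highest mean over all arrays. Differences are log2, with the fit's standard error. The number of arrays limits the precision.

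The 10 members and the further lists were chosen with earlier results of these data known. All members are named, with the genes of the other clock, output, glucocorticoid and heat lists that passed the threshold; 13 comparisons were fitted and 4 added after the values were seen. Correlations over 17 pairs used deviations from group means and 100000 permutations within groups, two-sided. The fit was tested on simulated data. Promoter windows are from RefSeq. Alternatives are given in the closing section.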

Additional observations from a re-analysis of the deposited data

Results flagged for a closer look

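Of 40 sets of arrays (each gene in each strain and genotype, both sexes together), 5 held an array whose distance from its nearest neighbour was large for the range of its set. The limit used marks about 5% of sets drawn from 1 normal distribution. These sets pool both sexes and share arrays between genes, so that rate need not hold here. B6 control female 1 was the highest of the 6 B6 controls for Per2 (7.29) and for Tef (10.001). B6 CF male 1 was the lowest of the 5 B6 CF arrays for Per2 (5.91) and for Per3 (6.31). BALB control male 1 was the lowest of the 6 BALB controls for Dbp (7.69). Both sexes are in each set, so an array can stand apart from the other sex as well as from its own.

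Some differences of effects passed their own test. The CF effect in BALB minus that in B6 was -1.50 for Dbp (limma adjusted p = 0.0456) and -1.31 for Hlf (adjusted p = 0.00555). The CF effect in B6 females minus that in B6 males was -2.31 for Dbp (adjusted p = 0.0423).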

How the results depend on the processing

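Counts of the 10 clock genes past the threshold stayed within 1.5 times of the reported count under most alternatives. With array weights, CF in B6 gave 8, CF in BALB 1, the strain difference of the CF effect 8, CF in B6 females 2 and BALB minus B6 female controls 7. The count for BALB minus B6 female controls was 1 with the mean of all probe sets, with only the groups compared, with the probe set of lowest p, after quantile normalization and with trended, robust variance. The sex difference in B6 gave 2 with only the groups compared and 0 with trended, robust variance, and CF in BALB gave 1 with the probe set of lowest p. With only probe sets at or above the median, which removes Npas2 and Nfil3, BALB minus B6 CF mice gave 1 and female minus male CF mice 0. With all probe sets averaged, the clock index of B6 control males was -2.11. The difference for Per3 in BALB reversed to 0.15 with the probe set of lowest p.

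Leaving out each array in turn, the counts ranged from 1 to 8 for CF in B6, 0 to 1 for CF in BALB, 1 to 8 for their difference, 9 to 10 for strain and 3 to 8 for sex among controls. They ranged from 0 to 2 for CF in B6 females, 0 to 5 in B6 males, 0 to 0 in BALB females and 0 to 1 in BALB males, and for the sex difference of the effect from 0 to 2 in B6 and 0 to 0 in BALB. Among CF mice they ranged from 2 to 2 for strain and 0 to 2 for sex. Within controls they ranged from 6 to 7 for sex in B6, 0 to 0 for sex in BALB, 0 to 6 for strain in females and 8 to 9 for strain in males. The mean index ranged from 0.16 to 0.34 in B6 CF females, -0.64 to 0.15 in B6 control females, -1.14 to -0.42 in B6 CF males, -2.41 to -2.29 in B6 control males, -0.18 to 0.49 in BALB CF females, 0.61 to 0.74 in BALB control females, -0.58 to -0.31 in BALB CF males and -0.23 to 0.27 in BALB control males. Values that changed sign were near 0. Per2 between control sexes ranged from -0.48 (without B6 control female 1) to 0.047 (without B6 control female 3, and 0.040 without 2). Nr1d1 for CF in B6 ranged from -0.056 to 0.088 (without CF female 2 or 1). Nfil3 for CF in BALB ranged from -0.15 to 0.077 (without control male 2 or 1, and 0.0092 without CF male 1). Without 1 B6 CF male, the other is assumed to vary like the other groups. The cause of these changes was not tested.

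Nothing states whether the replicate numbers pair the samples. Deviations of 77 same-numbered pairs correlated at -0.18 to 0.35, 17 over 0.1, and 9 of 23 arrays correlated best with their own number. The values expected by chance were not worked out, so these cannot tell whether the numbers mark pairs or batches. With the replicate block, CF in B6 gave 2, CF in BALB 0, their difference 2, strain 10, sex 7 and CF in B6 males 3.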
